A study of Mus musculus with 4 samples.

Results

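The genes described here encode 10 receptor chains through which cytokines act on T cells: Il2rb, Il2rg, Il4ra, Il10ra, Il12rb1, Il12rb2, Il18r1, Il18rap, Il21r and Il6ra. They were chosen by gene symbol from the 55401 genes in the tables. RNA sequencing was done on cells sorted as CD3+CD8+ from mouse lung, with 1 library for each of 4 groups and with C57BL/6J given as the genotype of all of them. The isotype IPF-LC and CD4-depleted IPF-LC groups carry a model labelled IPF-LC, and the isotype LC and CD4-depleted LC groups a model labelled LC. In each model one group received an isotype antibody and the other an antibody against CD4 that removes CD4+ cells. The labels spell out neither model, and the age of the mice and the number of mice behind each library are not given in the sources used here. With 1 library per group no difference between a pair of libraries could be set against the spread between animals, so no p-value is given for such a pair.

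Cytokine receptors are assembled from chains, and signalling generally requires the chains of a receptor to come together. The common gamma chain, encoded by Il2rg, pairs with Il2rb for IL-2 and IL-15, with Il4ra for IL-4 and with Il21r for IL-21, and signals through the kinases JAK1 and JAK3 to STAT proteins. Il12rb1 and Il12rb2 form the receptor for IL-12, which acts through STAT4 to favour interferon-gamma production, and Il12rb1 also joins Il23r in the IL-23 receptor. Il18r1 and its accessory chain Il18rap form the IL-18 receptor, which signals through MyD88 and not through JAK kinases. Il10ra and Il6ra bind IL-10 and IL-6 and pair with the widely expressed chains Il10rb and Il6st, and both receptors lead to STAT3.

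Total expected counts ranged from 14946579 to 16217677 per library. Expression levels are in CPM (counts-per-million of the library total, scaled by the TMM method) and, where genes are compared with each other, in TPM (transcripts-per-million, which corrects for length). Ratios are on the log2 scale, depleted over isotype antibody or IPF-LC over LC, and the 95% interval of each is an exact binomial one that covers counting error only, since reads without molecular identifiers are not independent molecules. Values of the libraries are listed below in 1 fixed order: IPF-LC with isotype antibody, IPF-LC after depletion, LC with isotype antibody, LC after depletion. Cd8a, which encodes a chain of CD8, lay between 353 and 518 CPM and the T cell receptor component Cd3e between 513 and 716, while Cd4 had 73, 0, 12 and 16 counts. Markers of other cells were also counted. The 10 macrophage and monocyte markers summed to 2660, 869, 2721 and 46.4 CPM. Of them Marco was at 0 counts in IPF-LC with isotype antibody, Marco and Fcgr1 in IPF-LC after depletion, none in the LC library with isotype antibody, and Adgre1, Marco, Fcgr1 and Mertk in LC after depletion. The 8 regulatory T cell markers summed to 217, 600.3, 355 and 525 CPM, with none at 0 in any library. The 6 natural killer cell markers summed to 30.8, 17.6, 43.1 and 11.1 CPM, with Ncr1 at 0 in both depleted libraries and Klra4 at 0 in IPF-LC with isotype antibody and LC after depletion. In such bulk samples fewer cells of a type and less RNA per cell cannot be told apart.

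The chains fell into a strongly and a weakly expressed set. Il2rg had the highest level, with a mean of 1786 TPM over the 4 libraries and a range of 1620 to 1885. Il21r (mean 513 TPM, 454 to 569) and Il2rb (mean 512 TPM, 403 to 629) followed and could not be ordered, as their ranges overlapped. Il4ra had a mean of 321 TPM, and its highest library, at 357, lay below the lowest library of Il2rb. Below these came Il18r1 at a mean of 33.3 TPM, Il12rb2 at 20.7, Il6ra at 20.2, Il18rap at 14.8, Il10ra at 14.3 and Il12rb1 at 6.88. Among these 6, each overlapped its neighbours in the order. All 10 chains passed the minimum used for counts of genes, a mean of 10 CPM, which 8433 genes met.

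Il4ra, Il2rg and Il21r were the steadiest chains across libraries, and most chains of the weak set varied more. The highest library exceeded the lowest by 1.24-fold in CPM for Il4ra, 1.26-fold for Il2rg, 1.32-fold for Il21r and 1.75-fold for Il2rb. The median over the 8387 genes with a count in every library was 1.49-fold. In the weak set this figure was 1.44-fold for Il18rap, 2.01-fold for Il12rb1, 2.05-fold for Il6ra, 2.59-fold for Il18r1, 3.43-fold for Il10ra and 5.65-fold for Il12rb2.

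**Figure D1:**
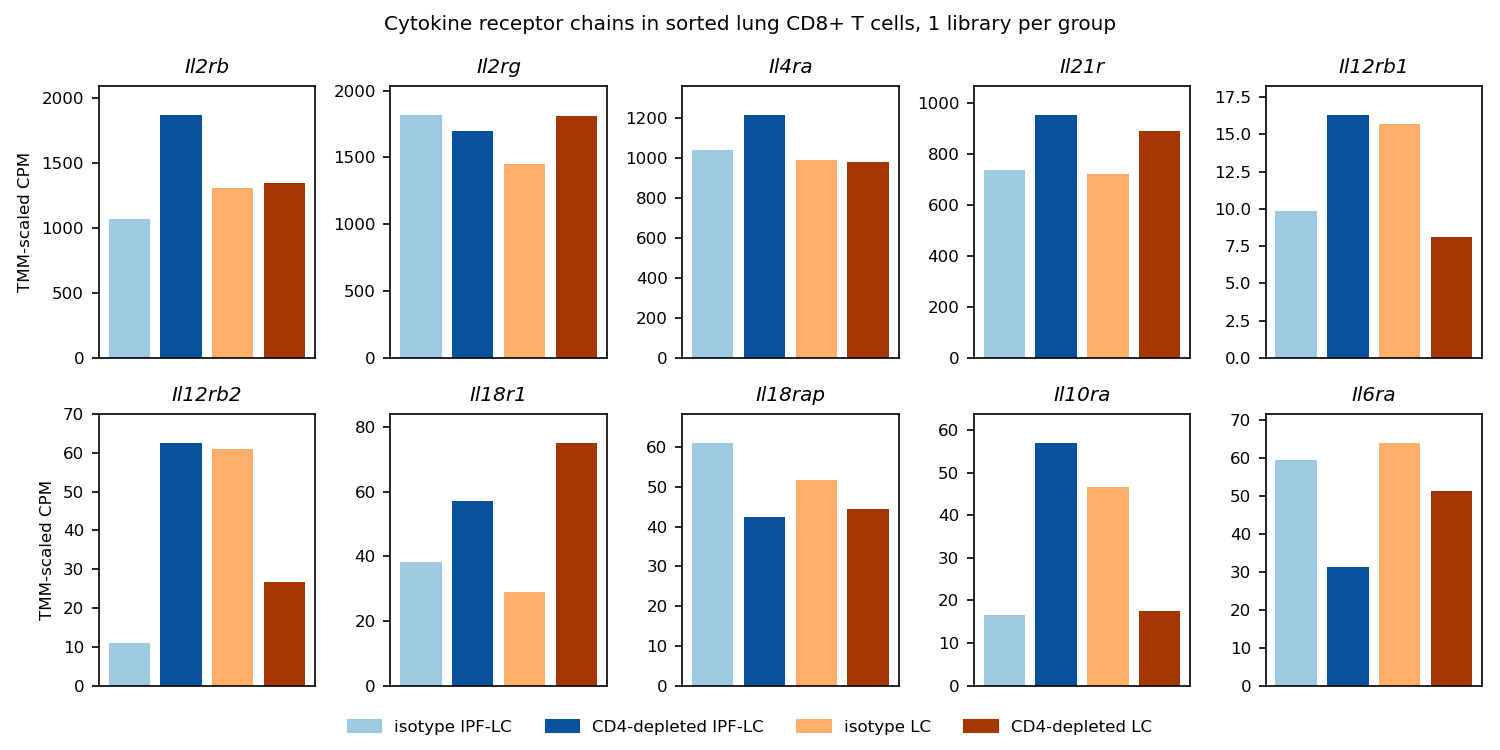
Level of each receptor chain as TMM-scaled CPM (vertical axis, from 0, with a separate scale per gene) in the 4 libraries, 1 bar per library and no error bar because no group has a replicate. Il12rb2, Il10ra and Il12rb1 are high in IPF-LC after depletion and in LC with isotype antibody and low in the other libraries, while Il18r1 is higher in both depleted libraries.

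Both chains of the IL-12 receptor were higher after depletion in IPF-LC and lower after depletion in LC. Il12rb2, the inducible signalling chain, was measured at 11.1, 62.6, 61.0 and 26.8 CPM. It was lowest in IPF-LC with isotype antibody and 5.64-fold higher after depletion there (log2 ratio 2.50, 95% counting interval 2.26 to 2.74), whereas in LC it was 2.28-fold lower after depletion (-1.19, -1.36 to -1.02). Of the 8433 genes, 0.249% had a higher ratio than Il12rb2 in the IPF-LC comparison and 5.02% had a lower ratio in the LC comparison. Il12rb1, the chain shared with the IL-23 receptor, stood at 9.85, 16.3, 15.7 and 8.10 CPM, from only 127 to 254 counts. Its ratios were 0.72 (0.43 to 1.02) in IPF-LC and -0.95 (-1.28 to -0.64) in LC, so it went the same way as Il12rb2 in each model but by less than 2-fold. In LC it passed the 2-fold mark with total counts (-1.01) and when scaled to T cell receptor chains (-1.23).

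The region around the start of Il12rb2 is shown because this chain had the widest range of all 10. It is taken from RefSeq in build GRCm38.p6, an older build than that of the counts, and runs from 250 bases before to 50 bases after the start (chr6:67376139-67376438, minus strand). Capitals mark a TTCNNNGAA motif, the palindrome bound by STAT proteins, and a TCACAC motif, which is part of the T-box element.

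Il12rb2: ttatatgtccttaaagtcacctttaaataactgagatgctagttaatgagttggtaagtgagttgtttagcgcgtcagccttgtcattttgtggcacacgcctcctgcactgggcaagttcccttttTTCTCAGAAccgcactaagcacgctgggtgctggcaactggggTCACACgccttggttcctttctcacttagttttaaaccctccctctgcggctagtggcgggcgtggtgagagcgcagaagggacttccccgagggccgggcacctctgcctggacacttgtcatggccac

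The table of promoters held entries for 7 of the 10 chains, and Il2rb, Il10ra and Il12rb1 were the others. Motifs were searched on both strands, and the share of the 32851 promoters of this length that hold each is given as background. The STAT motif TTCNNNGAA was in 8.30% of them. The RUNX motif, of the letters TGTGGT, was in 16.8%. For the T-box motif, searched as TCACAC, the share was 14.5%. The AP-1 motif was searched as TGANTCA and found in 7.81%. Among these promoters 14.9% held the ETS motif, with CCGGAA as its letters. The TATA box, searched as TATAAA, was in 13.6%. In Il12rb2 the STAT motif began at position -123 and the T-box motif at -80 from the start, without overlap. The STAT motif occurred in 2 of the 7 chains, Il12rb2 and Il18r1, the T-box motif in 1 (Il12rb2), the RUNX motif in 4 (Il2rg, Il18r1, Il18rap and Il21r) and the ETS motif in 1 (Il2rg), while none held the AP-1 motif or the TATA box. For Il18r1 a match at any of 3 start sites counted, whereas the background shares are per promoter. These are matches of letters, and binding was not measured.

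Il10ra, the ligand-binding chain of the IL-10 receptor, followed the order seen for Il12rb2. It stood at 16.6, 57.04, 46.7 and 17.5 CPM, high in IPF-LC after depletion and in LC with isotype antibody and low in the others. After depletion it was 3.42-fold higher in IPF-LC (1.78, 1.58 to 1.98) and 2.67-fold lower in LC (-1.42, -1.62 to -1.21). Il10rb, its partner, did not share this order: it was measured at 86.3, 57.2, 87.9 and 48.4 CPM, lower after depletion in both models (-0.59 and -0.86). Macrophages also express Il10ra. The library with the lowest Il10ra level had 2660 CPM of macrophage markers, that with the highest had 869, and in LC both were lower after depletion. With isotype antibody, 5 of the 7 macrophage markers at 10 CPM or more were at least 2-fold lower in IPF-LC than in LC. Of all genes 4.10% were, and none of the 7 was higher by that much. Il10ra was also lower in IPF-LC there. Foxp3, which defines regulatory T cells, stood at 1.47, 29.3, 3.88 and 32.5 CPM, high in both depleted libraries. Of the 7 regulatory T cell markers at 10 CPM or more, 6 passed the 2-fold mark upwards with depletion in IPF-LC and 2 did in LC, and none passed it downwards. The median log2 ratio of these 7 was 2.32 in IPF-LC, where Il12rb2 and Il10ra rose with depletion. It was 0.305 in LC, where both of these chains fell. With isotype antibody, 4 of the 7 were at least 2-fold lower in IPF-LC than in LC, as were Il12rb2 and Il10ra. The number at least 2-fold higher there was 0. Between the depleted libraries, Ikzf4 passed the mark upwards and Il2ra downwards, while both chains passed it upwards. The part of either cell type in the Il12rb2 and Il10ra values was not tested.

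Of the 10 chains, 2 (Il10ra and Il12rb2) passed the 2-fold mark upwards after depletion in IPF-LC, as 4.08% of the 8433 genes did, and 0 were lower by that much, against 6.02% of all genes. In LC, 1 (Il18r1) was at least 2-fold higher, with 2.59% of all genes, and 2 (Il10ra and Il12rb2) were at least 2-fold lower, with 5.85%. No library is used by both of these comparisons. Genes at least 2-fold higher in IPF-LC and at least 2-fold lower in LC numbered 24, which is 0.285% of all, and 2 of the 10 chains were among them. None of the chains had the opposite pattern by the same mark, which 0.0830% of all genes had, and none passed the mark upwards in both models, as 0.605% of genes did. The difference between the depletion ratios, IPF-LC minus LC, was 3.68 (3.40 to 3.97) for Il12rb2, 3.19 (2.91 to 3.47) for Il10ra and 1.68 (1.26 to 2.10) for Il12rb1. It was exceeded by 1.04, 1.40 and 3.44% of genes. The median ratio of the 10 chains was 0.48 in IPF-LC, where that of all genes was 0.002, and -0.12 in LC, where that of all genes was 0.06.

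**Figure D2:**
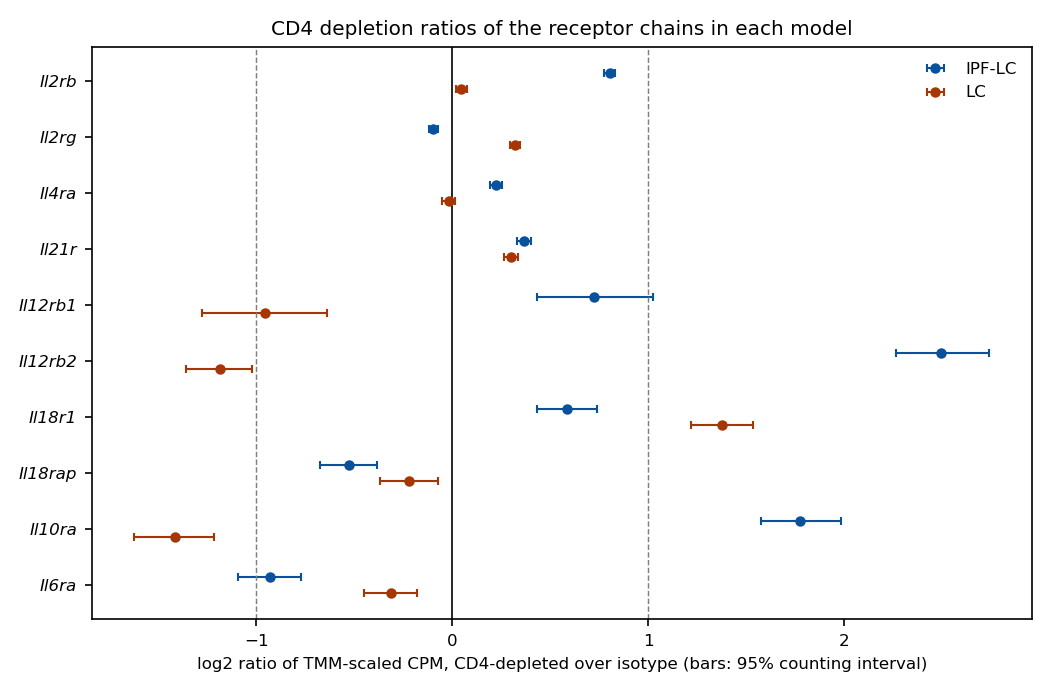
Log2 ratio of CD4-depleted over isotype for each chain (horizontal axis) in IPF-LC (blue) and LC (brown). Bars are 95% counting intervals, dashed lines mark 2-fold. Il12rb2 and Il10ra lie beyond the 2-fold line on opposite sides in the models, and Il18r1 lies to the right in both.

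The IL-18 receptor chains went in opposite directions after depletion, and they did so in both models. Il18r1, which binds IL-18, stood at 38.2, 57.3, 29.0 and 75.2 CPM, so that both depleted libraries lay above both isotype libraries. Its ratio was 0.58 (0.43 to 0.74) in IPF-LC and 1.37 (1.22 to 1.54), or 2.59-fold, in LC. Il18rap, the accessory chain needed for signalling, stood at 61.1, 42.4, 51.7 and 44.3 CPM, with both depleted libraries below both isotype libraries. Its ratio was -0.53 (-0.67 to -0.38) in IPF-LC and -0.22 (-0.37 to -0.07) in LC, less than 2-fold in each. The 8 markers of type 17 and gamma delta T cells, which can carry Il18r1, moved with it, with sums of 49.8, 72.7, 33.4 and 66.2 CPM. Of them 0, 1, 2 and 2 were at 0, with Sox13 at 0 in both depleted libraries. Their part in the Il18r1 values was not tested. Natural killer cells carry both chains, and their markers, as summed above, were lower after depletion in both models, with Ncr1 at 0 in both depleted libraries. Their sum fell by more in LC, where Il18rap differed less. With isotype antibody it was lower in IPF-LC than in LC, where Il18rap was lower. Of these 6 markers 2 reached 10 CPM. The part of natural killer cells in the Il18rap values was not tested.

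Il18r1 and Il18rap are neighbours on chromosome 1 in RefSeq, with no other protein-coding gene between them. Their start regions are printed because these adjacent genes differed in direction. For Il18r1, which has 3 start sites in the table, the third is shown (chr1:40465756-40466055, plus strand, GRCm38.p6), with 2 STAT motifs in capitals, at positions -219 and -152. The first and second sites hold no STAT motif, and the second holds the RUNX motif at position 21. For Il18rap (chr1:40515112-40515411, plus strand, GRCm38.p6) capitals mark the RUNX motif on the reverse strand, at position 31.

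Il18r1: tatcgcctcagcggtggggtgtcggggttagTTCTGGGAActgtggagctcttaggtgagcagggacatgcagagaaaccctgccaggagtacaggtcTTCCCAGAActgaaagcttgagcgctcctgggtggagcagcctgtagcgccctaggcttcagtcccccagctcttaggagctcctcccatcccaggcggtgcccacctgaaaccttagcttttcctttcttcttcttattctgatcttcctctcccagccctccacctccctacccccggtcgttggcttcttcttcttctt
Il18rap: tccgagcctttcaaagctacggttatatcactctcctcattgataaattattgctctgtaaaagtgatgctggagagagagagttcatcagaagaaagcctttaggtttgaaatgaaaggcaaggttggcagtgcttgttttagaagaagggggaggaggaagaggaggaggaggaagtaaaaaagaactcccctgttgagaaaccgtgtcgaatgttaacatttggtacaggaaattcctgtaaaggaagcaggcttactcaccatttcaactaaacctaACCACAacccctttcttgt

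Il2rb, the signalling chain of the IL-2 and IL-15 receptors, was higher after depletion in IPF-LC, by less than 2-fold. It stood at 1072, 1871, 1308 and 1350.0 CPM, highest in the depleted IPF-LC library and close in both LC libraries. The ratio was 0.80 (0.78 to 0.83) in IPF-LC and 0.05 (0.02 to 0.07) in LC, and the latter turned to -0.01 with total counts, -0.08 with TPM and -0.23 when scaled to T cell receptor chains. Il2ra, which raises the affinity for IL-2 and is typical of regulatory and recently activated T cells, was far weaker, at 5.50, 13.7, 30.4 and 37.5 CPM. Its ratio was 1.31 (0.95 to 1.70) in IPF-LC and 0.30 (0.13 to 0.48) in LC. The estimated transcript length of Il2ra was 2936 bases with isotype antibody and 4412 bases after depletion in IPF-LC, and per length its level differed less, at 2.74 and 4.20 TPM.

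Il2rg, Il21r and Il4ra were closer between libraries. Il2rg stood at 1816, 1699, 1447 and 1807 CPM, lowest in the isotype LC library. Its ratio was -0.10 (-0.12 to -0.07) in IPF-LC, which became 0.10 when scaled to T cell receptor chains, and 0.32 (0.30 to 0.35) in LC. Il21r stood at 740.0, 954, 723 and 891 CPM, higher in both depleted libraries, with ratios of 0.37 (0.33 to 0.40) and 0.30 (0.26 to 0.34). Il21r thus differed by 0.07 (0.01 to 0.12) between the models in its depletion ratio, the smallest such difference among the 10 chains in size. Il4ra, its neighbour on chromosome 7, stood at 1037, 1212, 989.8 and 977 CPM, with ratios of 0.22 (0.20 to 0.26) and -0.02 (-0.05 to 0.01). In LC the interval of Il4ra included 0, and the ratio became -0.293 when scaled to T cell receptor chains. Il7r, the IL-7 receptor chain that sustains resting T cells and also uses Il2rg, had ratios of -0.11 and 0.03. The weakly expressed chains of this family varied more. Il9r, the IL-9 receptor chain, stood at 3.01, 8.98, 1.88 and 11.7 CPM on 29 to 183 counts, higher after depletion in both models (1.57, 1.09 to 2.09, and 2.62, 2.07 to 3.26). Il15ra, which presents IL-15 to cells with Il2rb and Il2rg, stood at 11.3, 2.44, 12.5 and 3.00 CPM, lower after depletion in both (-2.19, -2.75 to -1.70, and -2.05, -2.55 to -1.59). Macrophages also express Il15ra, and their markers were lower after depletion in both models. Their part in the Il15ra values was not tested.

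Il6ra, which binds IL-6, was the chain with the lowest ratio in IPF-LC. It stood at 59.4, 31.2, 64.1 and 51.5 CPM, lowest in the depleted IPF-LC library. The ratio was -0.93 (-1.09 to -0.77) in IPF-LC and -0.32 (-0.45 to -0.18) in LC. With library totals alone as the scale, the IPF-LC ratio just passed the 2-fold mark. Its signalling partner Il6st had ratios of -0.80 (-0.87 to -0.73) and 0.12 (0.06 to 0.19). Il6ra is expressed by naive T cells and by macrophages, and the macrophage markers were lower after depletion in both models, by more in LC, where Il6ra differed less. Their part in the Il6ra values was not tested.

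The models were also compared with each other under the same antibody. These comparisons use the same 4 libraries as those above and are not independent of them. With isotype antibody, 2 of the 10 chains were at least 2-fold lower in IPF-LC than in LC, Il12rb2 (-2.46, -2.71 to -2.23) and Il10ra (-1.49, -1.70 to -1.28), where 4.10% of all genes were, and 0 were at least 2-fold higher, where 1.91% were. After depletion, 3 were at least 2-fold higher in IPF-LC than in LC, where 3.30% of all genes were: Il10ra (1.70, 1.51 to 1.91), Il12rb2 (1.22, 1.06 to 1.39) and Il12rb1 (1.01, 0.69 to 1.33). Il12rb1 fell just short of the mark with total counts (0.957) and with a prior count of 2 (0.997). None was at least 2-fold lower, against 2.57% of all genes. Il21r had ratios of 0.03 (-0.004 to 0.07), which became -0.06 with TPM and -0.40 when scaled to T cell receptor chains, and 0.10 (0.07 to 0.13) with isotype and depleting antibody, and Il6ra ones of -0.11 (-0.24 to 0.02) and -0.72 (-0.89 to -0.56).

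Chains of one receptor were set against each other in TPM within each library, which does not depend on the scaling between libraries. The ratio of Il12rb2 to Il12rb1 was 0.883, 3.499, 3.89 and 3.23. IPF-LC with isotype antibody thus stood apart, with about as much of one chain as of the other, and the other libraries were close. The ratio of Il18rap to Il18r1 was 0.739, 0.320, 0.756 and 0.267, nearly the same with isotype antibody in both models and lower in both depleted libraries. For Il10ra over Il10rb it was 0.0911, 0.462, 0.253 and 0.170, highest in the depleted IPF-LC library. Il6ra over Il6st gave 0.295, 0.243, 0.416 and 0.314, lower after depletion in each model.

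Il2rg exceeded each of its 3 partner chains in every library. Its TPM was 4.65, 2.81, 3.11 and 3.81 times that of Il2rb, 4.12, 3.11, 3.42 and 3.41 times that of Il21r, and 5.94, 4.95, 5.14 and 6.33 times that of Il4ra. The surplus over Il2rb was smallest in IPF-LC after depletion. Il2ra reached 0.00680, 0.00667, 0.0228 and 0.0250 of the TPM of Il2rb, higher in both LC libraries. Il23r, which needs Il12rb1, rested on 64, 57, 11 and 46 counts and reached 0.402, 0.239, 0.0533 and 0.422 of the TPM of Il12rb1.

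**Figure D3:**
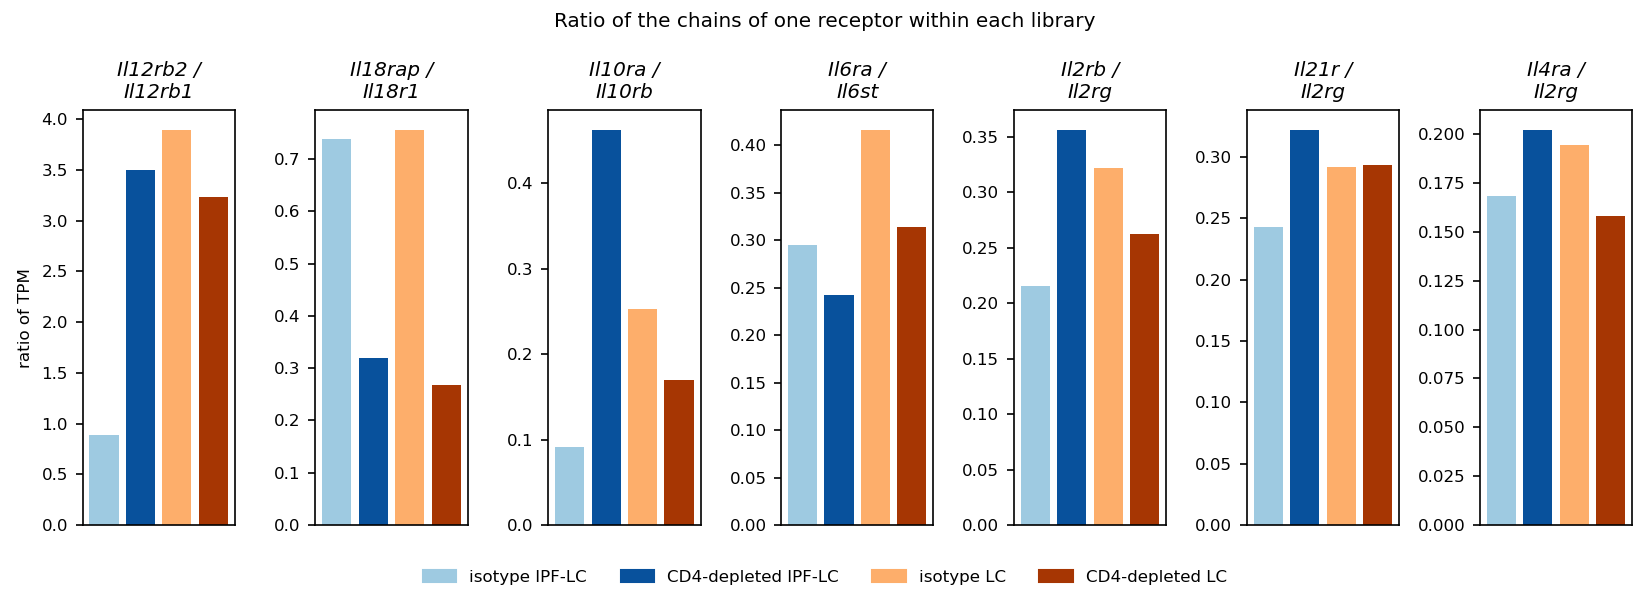
Ratio of the TPM of 2 chains of the same receptor (vertical axis, from 0, with a separate scale per pair) in each of the 4 libraries. IPF-LC with isotype antibody has the lowest Il12rb2 to Il12rb1 ratio, 0.883 against 3.23 to 3.89 in the others, and the Il18rap to Il18r1 ratio is lower in both depleted libraries.

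The tables also give a length for each gene that depends on which of its transcripts the reads were assigned to. It differed most between libraries for Il12rb1, at 2416, 2626, 2873 and 2854 bases, a 1.19-fold range over its 6 listed transcripts. For Il18r1, also with 6 transcripts, it was 2426, 2135, 2163 and 2332 bases (1.14-fold). The other 8 chains had ranges of 1.01-fold to 1.08-fold, and the median over all 8433 genes was 1.08-fold, with 42.4% of genes at 1.1-fold or more. Few reads stood behind the Il12rb1 values, and the assignment of reads to transcripts has no error given in the tables.

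The genes with the most similar profile were sought for the 3 chains with the widest range, by the root mean square difference of log2 CPM after centring each gene on its mean over the 4 libraries. With 4 libraries many genes can share a profile, and likeness is a description. For Il12rb2 the nearest of 8202 genes were Rgs16 (0.0954), Gzmk (0.113), Ccr8 (0.146), Pdcd1 (0.293) and Cfl2 (0.303). Rgs16, for example, stood at 24.6, 154, 148 and 71.6 CPM. Il10ra ranked 21st by likeness to Il12rb2, at a difference of 0.451. The genes nearest to Il10ra were Ptprj (0.182), Cfl2 (0.20), Mir22hg (0.217), Sbno2 (0.231) and Enpp1 (0.280), and those nearest to Il18r1 were Ppp1r13b (0.0196), Map3k7 (0.0461), Rab4a (0.0728), Trerf1 (0.0808) and Crmp1 (0.0942).

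Of the genes that carry the signals of these receptors, all 11 listed JAK and STAT genes reached 10 CPM. Of all genes, 4.08% were higher and 6.02% lower by the 2-fold mark in IPF-LC and 2.59% higher and 5.85% lower in LC. In IPF-LC 3 of them were 2-fold higher or more and 0 lower by that much, with a median of 0.48, while in LC 0 were 2-fold apart in either direction and the median was 0.08. This difference between the models was not tested. Jak2, a kinase of the IL-12 receptor, stood at 46.4, 147, 61.7 and 107 CPM, with ratios of 1.67 (1.54 to 1.79) and 0.79 (0.68 to 0.91). Stat5a, activated by IL-2, had ratios of 1.26 and 0.56, and Stat5b 0.84 and 0.80. Stat3, activated by IL-10, IL-6 and IL-21, stood at 400.0, 989.3, 876 and 531 CPM, which is the library order of Il10ra, with ratios of 1.31 (1.26 to 1.35) and -0.72 (-0.76 to -0.68). Tyk2, another kinase of the IL-12 receptor, had ratios of -0.68 and 0.24 and its lowest level in IPF-LC after depletion. In the IL-18 pathway, 9 of the 10 listed genes were measured at 10 CPM and 1 was at least 2-fold higher in each model: Irak2, a kinase of the MyD88 complex, in IPF-LC (1.22 against -0.05 in LC), and Map3k7, the kinase TAK1 that acts below it, in LC (1.35 against 0.67 in IPF-LC). The median of the 9 genes was 0.24 in IPF-LC and 0.13 in LC.

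Among 19 feedback regulators and target genes, 15 reached 10 CPM. In IPF-LC 2 of these passed the 2-fold mark upwards and 2 downwards, with a median of 0.51. In LC 0 passed it upwards and 5 downwards, with a median of -0.30. Of all genes, 4.08% passed it upwards and 6.02% downwards in IPF-LC, and 2.59% and 5.85% in LC. Cish, a feedback inhibitor induced by STAT5, stood at 35.3, 95.9, 47.0 and 53.7 CPM (1.44 and 0.19), and the other higher gene was Pim1 (1.09 and 0.09), a kinase named after its value was seen. Ptpn6, the phosphatase SHP-1, a brake on receptor signals in blood cells, was lower in both (-1.88 and -1.70), as was Osm (-2.54 and -1.80). Ifng, the main product of IL-12 and IL-18 signalling, had ratios of -0.09 (-0.29 to 0.11) and -1.29 (-1.52 to -1.06), and Myc (-0.62 and -1.19) and Gadd45g (-0.48 and -1.13) were below 0 in both models. The difference between the models was not tested for these genes.

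Other receptor chains included some that mark myeloid cells. Of 28 listed, 14 reached 10 CPM. By the 2-fold mark 1 of them was higher and 3 were lower in IPF-LC, and 0 were higher and 4 lower in LC, against 4.08% and 6.02% of all genes in IPF-LC and 2.59% and 5.85% in LC. Csf2rb and Csf2ra, the receptor chains for GM-CSF, stood at -2.90 and -2.19 for IPF-LC, and at -7.81 and -3.96 for LC, where Csf2rb had 4 counts against 997. Il13ra1, the partner of Il4ra in the receptor of cells other than T cells, had 88, 33, 726 and 0 counts and was at least 245-fold lower after depletion in LC by a floor of 3 counts per library. Il1r2, a decoy receptor for IL-1, stood at 1.98, 12.3, 79.3 and 6.38 CPM, in the same direction as Il12rb2 in each model (2.61 and -3.63). Neutrophils express Il1r2, and the 6 neutrophil markers, of which 1 reached 10 CPM, summed to 7.04, 3.59, 92.8 and 1.28 CPM. Their sum was highest in the library where Il1r2 was highest. In IPF-LC it was lower after depletion, where Il1r2 was higher. Of these markers 2, 4, 1 and 5 were at 0, with Ly6g at 0 in every library. Their part in the Il1r2 values was not tested. The macrophage markers given above moved with the Csf2rb, Csf2ra and Il13ra1 values, and their part was not tested. In the remaining gamma-chain family, 3 of 5 chains reached 10 CPM, of which Il2ra was 2-fold apart, in IPF-LC. Il9r and Il15ra, given above, lay under this minimum and were over 2-fold apart in both models. Crlf2, a chain of the TSLP receptor, had ratios of 0.45 and 0.25.

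The ligands of these receptors had low counts in the sorted cells. Of 16 ligand genes none reached a mean of 10 CPM, the highest value in any library was 7.96 CPM, and 6 had no count in any library. Per length, some were level with the weak chains. In LC with isotype antibody Il18 was at 23.71 TPM, beside 21.55 for Il18r1. In IPF-LC with isotype antibody Il6 was at 6.93 TPM, beside 6.09 for Il12rb1. Il18 had 24, 5, 123 and 0 counts and Il6 had 69, 0, 51 and 0, lower after depletion in both models. Il10 (0, 18, 16 and 10 counts) and Ebi3 (0, 30, 51 and 10) were higher after depletion in IPF-LC.

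**Figure D4:**
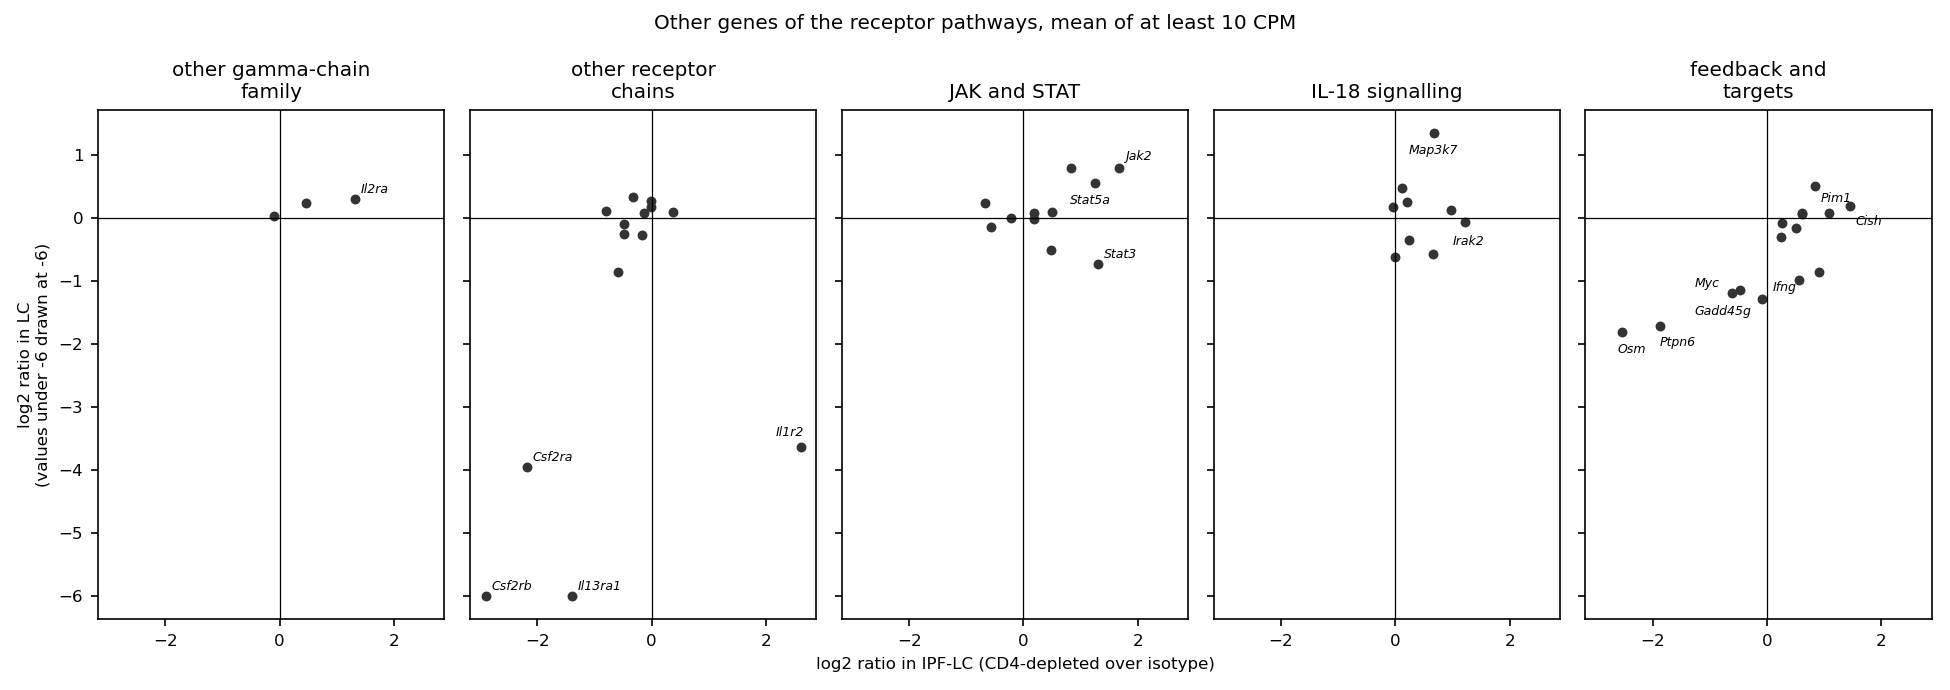
Log2 ratio of CD4-depleted over isotype in IPF-LC (horizontal axis) and in LC (vertical axis) for the genes of 5 lists that reach a mean of 10 CPM, with names for those at least 2-fold apart in either model. Values under -6, of Csf2rb and Il13ra1, are drawn at -6. Jak2 and Stat5a lie above 0 in both models, while Stat3 and Il1r2 lie above 0 in IPF-LC and below 0 in LC.

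A single model of all 4 libraries was fitted across 13045 genes with additive terms for model and antibody, and it asks for effects that both models or both antibodies share. The interaction is the 1 degree of freedom it leaves as residual. By edgeR's quasi-likelihood test, two-sided with Benjamini-Hochberg adjustment over all genes, 0 of the 10 chains and 0% of all genes were called for depletion in either direction. At an unadjusted p under 0.05 there were 1 chain and 9.31% of all genes. That chain was Il18r1, with an edgeR log2 change of 0.98 (SE 0.294) and an adjusted p = 0.491. Il12rb2 (0.64, SE 1.04) and Il10ra (0.18, SE 0.890) had large errors, as their ratios opposed each other in the models. For IPF-LC over LC, 0 chains and 1.87% of all genes had an unadjusted p under 0.05. After adjustment these were 0 chains and 0% of all genes. DESeq2 was fitted to more genes, 19173. For depletion it called 0 of the 10 chains and 3.41% of the 13597 genes that it gave an adjusted p. In that fit 2 chains and 7.65% of the 19173 genes had an unadjusted p under 0.05 for depletion. For IPF-LC over LC DESeq2 called 0 chains and 0.0261% of the 19173 genes. The limma-voom fit called 0 chains and 0% of all genes for either term. For depletion, 1 chain and 11.8% of all genes had an unadjusted p under 0.05 in it. Across tools and filters the smallest adjusted p of a chain for depletion lay between 0.224 and 0.611.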

How the data were processed

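The cDNA of sorted lung CD8+ T cells was made with SMART-Seq and turned into NEBNext libraries, per the labels' protocols. RSEM 1.3.3, STAR 2.7.11a, fastp 0.23.4 and MultiQC 1.25.2 are named, with no roles, in the submitters' processing notes, as is build GRCm39. The annotation release is not given in the sources used here. Expected counts, as deposited, estimate the reads of each gene without normalisation and were rounded to whole numbers. The deposited TPM values are corrected for length and depth, and the deposited FPKM values were not used. The deposited length column gives each gene's length in bases, which differs between libraries for genes with several transcripts.

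Counts were scaled with TMM (edgeR 4.0.16). Log2 ratios used a prior count of 0.5 and exact conditional binomial 95% intervals. For the difference between the depletion ratios a Wald interval was used. Genes were counted at a 10 CPM mean and a 2-fold mark. The additive model was fitted with edgeR, and with DESeq2 1.42.0 and limma 3.58.1 as alternatives, and was tested on simulated data, as were the intervals. The members, gene lists and comparisons were chosen with earlier results of these data known. Named genes were all 10 chains, their partners, the 5 nearest profiles for 3 chains, Cd8a, Cd3e, Cd4 and Foxp3, and up to 6 per list with the largest depletion ratios at 10 CPM. Il9r, Il15ra, Pim1 and the markers at 0 were named after their values were seen. Promoters came from RefSeq GRCm38.p6, with 7 of 10 chains matched by symbol, and no coordinates were moved between builds. Alternatives were DESeq2 size factors, total counts, the summed counts of Cd3d, Cd3e, Cd3g and Cd247, TPM, other prior counts, marks and filters.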

Additional observations from a re-analysis of the deposited data

Results flagged for a closer look

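For 4 of the chains the depletion ratio had opposite signs in IPF-LC and LC, with counting intervals that left out 0 in both. The difference was 3.68 on the log2 scale for Il12rb2, 3.19 for Il10ra, 1.68 for Il12rb1 and -0.417 for Il2rg, whose ratios lay close to 0 in both models and whose difference became 0.0497 when scaled to T cell receptor chains. The difference was not tested, since each model has 1 library per antibody.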

How the results depend on the processing

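Of 200 log2 ratios of single chains under another scaling, TPM or prior count, 135 stayed within their counting interval, 54 moved outside it in the same direction and 11 changed sign. Both depletion ratios of Il12rb2 and of Il10ra kept their sign and their side of the 2-fold mark under DESeq2 size factors, total counts, T cell receptor chains, TPM and a prior count of 2. Scaling to T cell receptor chains shifted the median of all genes by 0.19 for depletion in IPF-LC, -0.28 for depletion in LC, -0.43 for IPF-LC over LC with isotype and 0.03 after depletion. The median of the chains then became 0.667, -0.395 and -0.469 in the first 3 comparisons. Under this scaling the ratio changed sign for Il2rg to 0.096 in IPF-LC and for Il2rb to -0.229 in LC. For IPF-LC over LC with isotype it became -0.104 for Il2rg, -0.365 for Il4ra, -0.0342 for Il18r1, -0.191 for Il18rap and -0.399 for Il21r, whose interval included 0. The difference between depletion ratios became 0.0497 for Il2rg and 0.159 for Il18rap. Il2rb in LC became -0.0107 with total counts and -0.0754 with TPM, and with isotype Il4ra became -0.00228 and Il21r -0.0598 with TPM.

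With total counts 1 chain, Il6ra, was at least 2-fold lower in IPF-LC. Il12rb1 in LC passed the mark downwards with total counts (-1.01) and T cell receptor chains (-1.23), which made 3 chains in place of 2, and for IPF-LC over LC with isotype it did so with T cell receptor chains (-1.1). At a 1.5-fold mark 4 chains were higher and 1 lower with depletion in IPF-LC, and 1 was lower in IPF-LC after depletion. The share of all genes at a 1.5-fold mark is not given, so these counts cannot be set against it. A minimum of 50 CPM left 0 chains 2-fold apart in any comparison, as Il10ra, Il12rb1, Il12rb2 and Il18r1 have lower means. The additive model called 0 chains under every tool and filter run. No paired analysis was possible because each group has 1 library. The depth limits Il12rb1 most, as its counts were the lowest of the 10 chains.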
